A study of Homo sapiens with 4 samples.

Results

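Endothelial nitric oxide synthase (NOS3, also called eNOS) and the genes that build and hold caveolae, the small flask-shaped pits of the plasma membrane, were followed in cells sorted during blood formation from human embryonic stem cells. The genes were chosen by name: NOS3, the caveolins CAV1 and CAV2, the cavins PTRF and SDPR (now CAVIN1 and CAVIN2), and the membrane-bound ATPases EHD2 and EHD4. All 7 were found once each among the 28285 gene rows of every table, and all 7 passed the filter on low values that left 15425 genes for testing.

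The cells came from H1, a human embryonic stem cell line in wide use, with enhanced green fluorescent protein (eGFP) knocked into GATA2, a gene of blood stem cells and hemogenic endothelium. The GFP-positive group is the eGFP+CD34+CD31+CD43- fraction, named hemogenic endothelium, the endothelium that gives rise to blood. The GFP-negative group is the eGFP-CD34+CD31+CD43- fraction, named endothelial cells. Each group had 2 RNA sequencing libraries. All 4 libraries share the knock-in and the sort for CD34 and CD31 and against CD43. The labels are not at one on the GFP-negative samples: their cell type is given as endothelial cells, but their source name is hemogenic endothelium, as in the GFP-positive samples, and every title carries "HE". Every title also carries "+Cre", with no role given. Nothing says how many clones were used, when cells were sorted, or whether the replicates are separate cultures. P-values therefore describe the spread among these 4 libraries alone, and that spread may be technical.

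Caveolae form when caveolins, which insert a hairpin into the inner leaflet, are joined by a coat of cavins, with EHD ATPases at the neck of the pit. They are abundant in endothelium, where CAV1 binds eNOS and holds it inactive until calcium and calmodulin release it. Nitric oxide from eNOS relaxes vessels and is known to act in the formation of blood stem cells.

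Levels are in TPM, which corrects a gene's reads for transcript length and for the library's total, so levels of different genes can be compared. TPM keeps no read total, and the depth behind each value is unknown. Endothelial markers were present in both fractions: the summed level of 9 (CDH5, KDR, TEK, TIE1, ERG, EMCN, VWF, CLDN5 and ESAM) was 1998 and 2123 TPM in GFP-positive libraries and 3806 and 3391 TPM in GFP-negative libraries. All 9 had lower levels in both GFP-positive libraries, against 21.5% of all tested genes, and all 9 had an unadjusted p under 0.05, against 14.1%, but none passed the test over all genes, and CLDN5 was listed at 0 in GFP-positive replicate 2. The summed level of 9 blood markers was 317 and 282 TPM in GFP-positive libraries against 133 and 123 TPM, and that of 11 mesenchymal and smooth muscle markers was 1914 and 1877 TPM against 1013 and 1238 TPM. Of the 9 blood markers 6 had higher levels in both GFP-positive libraries, against 22.8% of all tested genes. An unadjusted p under 0.05 was found for 5, against 14.1%. After adjustment 1 rose, HBG2, and 8 did not pass. PTPRC, the gene of CD45, stood at 0.31 to 2.64 TPM over all libraries, and HBG1 was listed at 0 in GFP-negative replicate 2. Of the mesenchymal markers 11 did not pass, and LUM was listed at 0 in GFP-positive replicate 2. Among these 11, 4 had higher levels in both GFP-positive libraries, against 22.8%, and 1 had lower levels, against 21.5%. An unadjusted p under 0.05 was found for 4, against 14.1%. The sum of 6 pluripotency markers was 615 and 499.5 TPM against 419 and 377 TPM, and none passed. LIN28A, at 477 and 386 TPM against 304 and 287 TPM, made up most of that sum. POU5F1 went the other way, with 0.93 and 0.03 TPM against 9.68 and 5.88 TPM (log2 fold change -2.60, limma adjusted p = 0.131). Of the 4 tested, 2 had a log2 fold change above 0 and 2 below. SOX2 was listed at 0 in all but GFP-negative replicate 1. The part of these other cell types in the results below was not tested.

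None of the 7 genes passed the test between fractions, but their levels did not all stand in the same relation. CAV1, CAV2 and EHD4 had lower levels in both GFP-positive libraries than in either GFP-negative library, SDPR and EHD2 had higher levels in both, and NOS3 and PTRF overlapped. Limma, a linear model fitted over all genes on log2(TPM + 1), called 0 of the 7 at a Benjamini-Hochberg adjusted p of 0.05, where it called 0.447% of all tested genes (0.123% higher and 0.324% lower). At an unadjusted p under 0.05 there were 5 of the 7, against 14.1% of all tested genes. This count depended on the setting. Over all 4 libraries it was 4 with no filter on low values, against 2230 of 19447 tested genes. Without a variance trend it was 3, against 2072 of 15425. The count was also lower with any library left out, a fit that leaves 1 library in a group. The groups did not overlap for 5 of the 7, against 44.3% of all tested genes: 3 were lower, against 21.5%, and 2 were higher, against 22.8%. The median log2 fold change of the 7 was -0.23, with 3 above 0 and 4 below, and that of all tested genes was 0.02. Leaving out GFP-negative replicate 1 moved the median of the 7 to -0.08 and leaving out replicate 2 of that fraction moved it to -0.37. For GFP-positive replicates 1 and 2 the corresponding medians were -0.35 and -0.10. An exact two-sided permutation test of a single gene with 2 libraries against 2 cannot give a p below 0.333, the value that these 5 genes had. In bulk RNA, fewer cells of a type and less RNA per cell cannot be told apart.

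**Figure D1:**
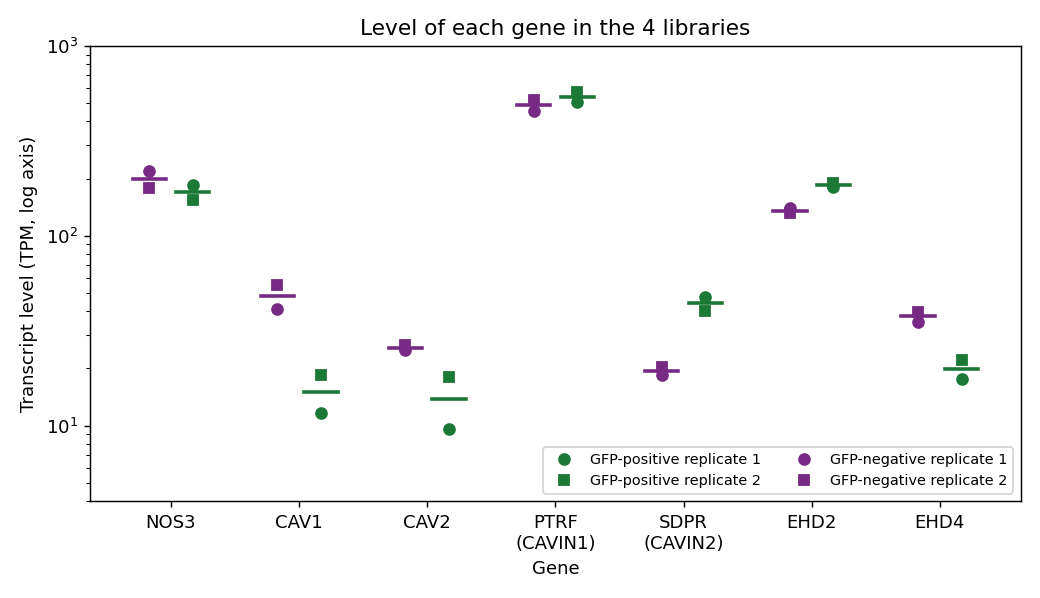
Level in TPM (log axis) of NOS3, the caveolins, the cavins and the EHD genes in each library, with circles for replicate 1, squares for replicate 2 and bars at the mean of a fraction. PTRF lies highest in all 4 libraries; CAV1, CAV2 and EHD4 lie lower in GFP-positive (green) than in GFP-negative (purple) libraries, and SDPR and EHD2 higher.

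Sequence before the RefSeq start is shown for 3 genes of the set: NOS3, whose level differed least but for PTRF, SDPR, which was higher in GFP-positive libraries, and EHD4, which was lower. The bases come from RefSeq promoters on GRCh38.p14, which matched 6 of the 7 genes. Only bases outside exons annotated for the gene in GENCODE v29 are printed, read 5′ to 3′ on the gene's strand. Capitals mark a GATA-type hexamer (AGATAA or AGATAG, and likewise TGATAA or TGATAG) or a GC box (GGGCGG), on either strand. They lie at chr7:150993532-150993752 (plus strand) for NOS3, chr2:191847256-191847338 (minus strand) for SDPR and chr15:41972579-41972807 (minus strand) for EHD4.
NOS3: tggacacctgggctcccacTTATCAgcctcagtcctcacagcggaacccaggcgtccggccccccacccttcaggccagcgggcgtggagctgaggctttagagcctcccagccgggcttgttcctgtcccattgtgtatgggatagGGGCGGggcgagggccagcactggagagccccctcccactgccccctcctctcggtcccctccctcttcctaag
SDPR: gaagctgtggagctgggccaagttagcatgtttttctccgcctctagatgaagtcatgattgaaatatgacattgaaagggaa
EHD4: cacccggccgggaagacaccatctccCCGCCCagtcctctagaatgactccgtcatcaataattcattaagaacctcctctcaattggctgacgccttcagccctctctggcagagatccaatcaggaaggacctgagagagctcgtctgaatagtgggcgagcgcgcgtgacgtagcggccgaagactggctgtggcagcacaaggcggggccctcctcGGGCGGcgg
The RefSeq start is not the first start in GENCODE v29, which begins NOS3 2787 bases and CAV2 212358 bases further upstream, so the windows of these genes lie inside the annotated gene. For the other 4 genes GENCODE begins 21 to 224 bases upstream, and 224 of the 250 bases for CAV1 are exonic there. In the 250 bases before the RefSeq start, NOS3 was the 1 gene of the 6 with a GATA-type hexamer, TGATAA on the minus strand from 231 bases before that start, and 22.9% of 27303 promoters of the same length held such a hexamer. A GC box was found once before NOS3 and EHD2, 3 times before CAV1 and EHD4, and not before SDPR. It was found 6 times before CAV2, whose 250 bases are all exonic in GENCODE v29. Of all promoters, 42.3% held one or more. The 250 bases before SDPR were 48% G or C, and those before the others 63.2% to 83.2%. The part of base content in these matches was not tested. These 2 kinds of motif share no bases in the printed stretches. A match is a string of letters and not a measured binding site.

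NOS3 makes nitric oxide from arginine and is a defining enzyme of endothelium. Its level was 185 and 155 TPM in GFP-positive replicates 1 and 2, and 219 and 179 TPM in GFP-negative replicates 1 and 2. The fractions overlapped, since the higher GFP-positive library lay above the lower GFP-negative one. The means were 170 ± 21.2 and 199 ± 28.1 TPM (SD, n = 2), and the log2 fold change of -0.23 ± 0.17 (SE) did not pass (limma adjusted p = 0.636). Its 95% interval ran from -0.65 to 0.20, which includes 0. NOS3 stood between percentiles 91.9 and 94.8 of tested genes in every library.

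NOS3 (ENSG00000164867) lies on chromosome 7 from 150990995 to 151014588 on the plus strand in GENCODE v29 on GRCh38. Its end overlaps ATG9B, an autophagy gene on the minus strand, which shares 786 exonic bases, or 13.2% of the exonic bases of NOS3. Whether counting used strand is not given in the sources used here, so reads in that stretch may belong to either gene. ATG9B had 17.6 and 25.4 TPM in GFP-positive and 21.0 and 11.8 TPM in GFP-negative libraries, well under NOS3 in each library.

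CAV1, the main structural protein of caveolae and the binding partner of eNOS, had the largest fitted difference of the 7. It stood at 11.7 and 18.4 TPM in GFP-positive replicates 1 and 2 and at 40.9 and 54.9 TPM in GFP-negative replicates 1 and 2. Both GFP-positive libraries were below both GFP-negative libraries, and the fraction means of 15.1 ± 4.74 and 47.9 ± 9.85 TPM (SD, n = 2) differed 3.18-fold. The log2 fold change was -1.62 ± 0.32 (SE), with a 95% interval of -2.40 to -0.85, and it did not pass over all genes (limma adjusted p = 0.107). CAV1 held rank 311 of the 15425 tested genes by p-value.

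CAV2, which reaches the plasma membrane mainly in complex with CAV1, had 9.56 and 18.0 TPM in GFP-positive and 25.0 and 26.6 TPM in GFP-negative libraries. The fractions did not overlap, but the GFP-positive libraries lay wide apart, at 13.8 ± 5.94 TPM (SD, n = 2) against 25.8 ± 1.15 TPM. The log2 fold change of -0.92 ± 0.37 (SE; 95% interval -1.82 to -0.02) did not pass (limma adjusted p = 0.342). CAV1 (ENSG00000105974, 116524785 to 116561184) and CAV2 (ENSG00000105971, 116287380 to 116508541) are neighbours on the plus strand of chromosome 7, with 16243 bases between the annotated end of CAV2 and the start of CAV1. CAV1 exceeded CAV2 in every library, with ratios of 1.22 and 1.02 in GFP-positive and 1.64 and 2.06 in GFP-negative libraries. The ratio was nearer to even in both GFP-positive libraries, and this difference was not tested.

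**Figure D2:**
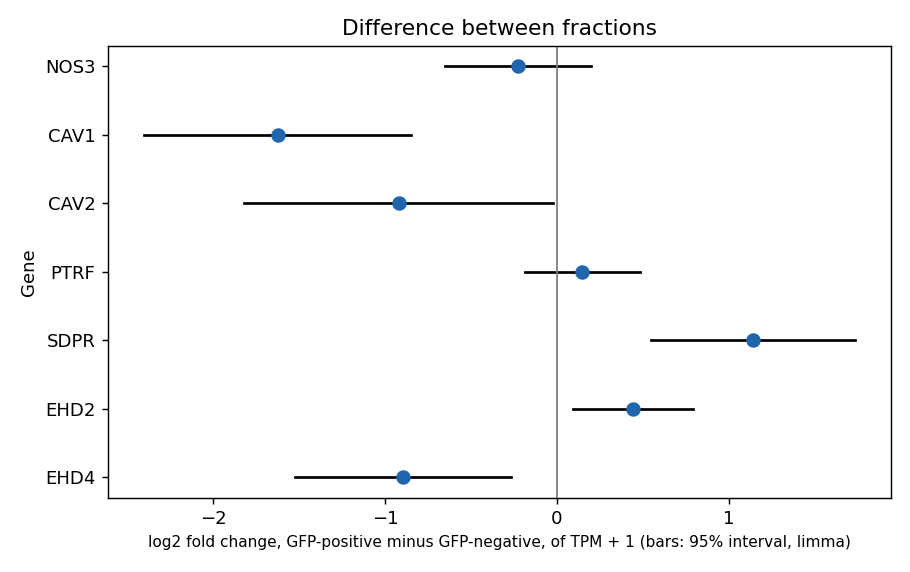
Log2 fold change (GFP-positive minus GFP-negative, on log2(TPM + 1)) of each gene from limma over all 4 libraries, with points for the estimate and bars for the 95% interval. CAV1 lies farthest below 0 at -1.62 and SDPR farthest above at 1.14, and the intervals of NOS3 and PTRF include 0; none of the 7 passed after adjustment over all genes.

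Of the cavins, PTRF, which is required for caveolae to form, was the most abundant gene of the set. It had 508 and 574 TPM in GFP-positive and 456 and 521 TPM in GFP-negative libraries, between percentiles 98.2 and 98.7 of tested genes. The fractions overlapped at 541 ± 46.6 and 488 ± 45.7 TPM (SD, n = 2), with a log2 fold change of 0.15 ± 0.14 (SE; 95% interval -0.19 to 0.48; limma adjusted p = 0.704). PTRF (ENSG00000177469) lies on chromosome 17 from 42402452 to 42423517 on the minus strand.

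SDPR, a cavin that shapes the caveolar membrane, had the reverse relation to the caveolins. It stood at 47.8 and 40.3 TPM in GFP-positive replicates 1 and 2 and at 18.4 and 20.4 TPM in GFP-negative replicates 1 and 2. The fractions did not overlap, and their means of 44.0 ± 5.28 and 19.4 ± 1.45 TPM (SD, n = 2) differed 2.27-fold. The log2 fold change of 1.14 ± 0.24 (SE; 95% interval 0.54 to 1.73) did not pass (limma adjusted p = 0.124). SDPR (ENSG00000168497; chromosome 2, 191834302 to 191847255, minus strand) shares 233 exonic bases with the antisense gene AC098617.1, which was listed at 1.18 to 1.70 TPM. The short stretch before SDPR shown above holds none of the letters in capitals.

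EHD2 and EHD4 belong to 1 family and differed in opposite directions. EHD2, which sits at the neck of caveolae and keeps them at the membrane, had 180 and 190.0 TPM in GFP-positive and 140 and 132 TPM in GFP-negative libraries. Its fractions did not overlap and varied little within themselves, at 185 ± 7.01 and 136 ± 5.63 TPM (SD, n = 2). The log2 fold change was 0.44 ± 0.14 (SE; 95% interval 0.10 to 0.79; limma adjusted p = 0.255). EHD4, which acts mainly in endosomal transport and can stand in for EHD2, had 17.6 and 22.1 TPM in GFP-positive and 35.3 and 39.9 TPM in GFP-negative libraries. These fractions did not overlap either, at 19.8 ± 3.20 and 37.6 ± 3.25 TPM (SD, n = 2), a 1.90-fold lower mean with a log2 fold change of -0.90 ± 0.26 (SE; 95% interval -1.52 to -0.27; limma adjusted p = 0.212). EHD2 (ENSG00000024422) lies on chromosome 19 from 47713343 to 47743134 on the plus strand, and EHD4 (ENSG00000103966) on chromosome 15 from 41895939 to 41972578 on the minus strand.

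The order of levels differed between fractions. PTRF was first in all 4 libraries, followed by NOS3 and EHD2, which do not differ beyond their spread in GFP-positive cells. In both GFP-positive libraries SDPR came next, at rank 4, then EHD4, CAV1 and CAV2, and the last 3 lay within the spread of their neighbours. In both GFP-negative libraries CAV1 was at rank 4, then EHD4, CAV2 and SDPR. There CAV1 and EHD4 lay close together, at 47.9 ± 9.85 and 37.6 ± 3.25 TPM (SD, n = 2). SDPR was thus the lowest of the 7 in GFP-negative libraries and at rank 4 in GFP-positive libraries.

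Ratios between genes within a library do not depend on how that library was scaled. There were 43.4 and 31.2 PTRF transcripts per CAV1 transcript in GFP-positive libraries, against 11.1 and 9.49 in GFP-negative libraries. For NOS3 over CAV1 the ratio was 15.8 and 8.41 against 5.34 and 3.26, and the fractions did not overlap. SDPR exceeded CAV1 in GFP-positive libraries, with ratios of 4.08 and 2.19, and was below it in GFP-negative libraries, with 0.449 and 0.372. EHD2 over EHD4 was 10.2 and 8.59 against 3.96 and 3.30. CAV1 and EHD4 were themselves lower in both GFP-positive libraries, so a gene with an even level would also tend to higher ratios to them. The share of all tested genes with such ratios to CAV1 or EHD4 was not counted. NOS3 over PTRF overlapped, at 0.363 and 0.269 against 0.480 and 0.344.

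**Figure D3:**
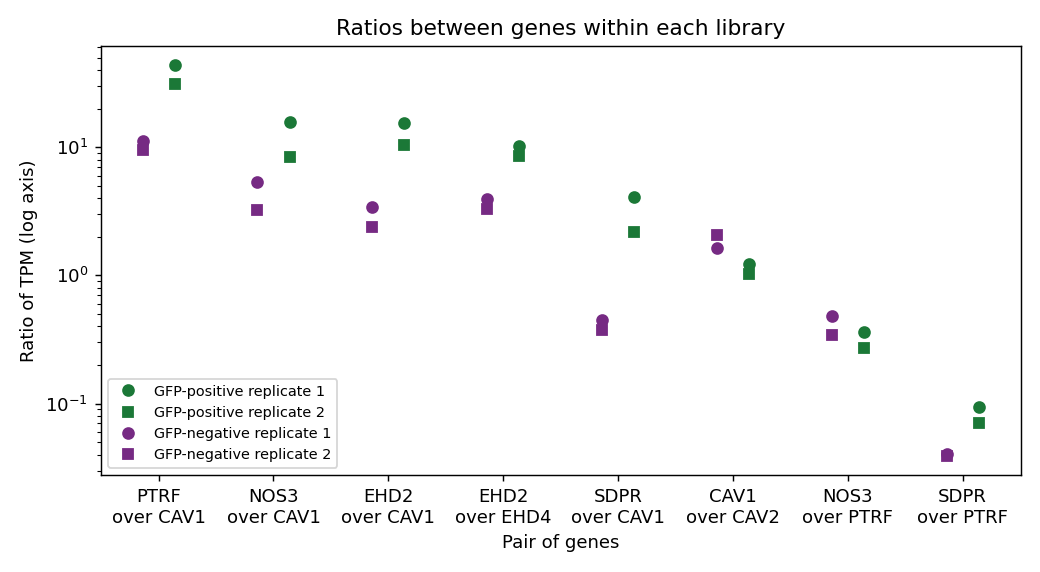
Ratio of TPM values (log axis) of 8 pairs of genes within each library, GFP-positive in green and GFP-negative in purple. The ratios to CAV1 of PTRF, NOS3, EHD2 and SDPR are higher in both GFP-positive libraries than in either GFP-negative library, while NOS3 over PTRF overlaps. CAV1 itself was lower in both GFP-positive libraries.

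Set against CDH5, the gene of VE-cadherin, the picture differed by gene. CDH5 had 329 and 314 TPM in GFP-positive and 767 and 623 TPM in GFP-negative libraries (limma adjusted p = 0.0524). NOS3 per CDH5 was 0.562 and 0.492 in GFP-positive libraries and 0.285 and 0.287 in GFP-negative libraries, without overlap. The level of NOS3 itself overlapped between fractions, while that of CDH5 was lower in both GFP-positive libraries. PTRF per CDH5 was 1.55 and 1.83 against 0.594 and 0.836, and SDPR per CDH5 was 0.145 and 0.128 against 0.0240 and 0.0328. CAV1 per CDH5 overlapped, at 0.0356 and 0.0585 against 0.0533 and 0.0881, as did CAV2 and EHD4 per CDH5. The result depended on the marker. Over the 8 markers above 0 in every library, the ratio of CAV1 was lower in both GFP-positive libraries for 4 (KDR, TEK, TIE1 and ESAM), overlapped for 3 and was higher for 1 (EMCN). For CAV2 and EHD4 it was lower for 1 (ESAM), overlapped for 6 and was higher for 1 (EMCN). The ratio of NOS3 was higher for 7 and overlapped for ESAM, and those of PTRF, SDPR and EHD2 were higher for all 8. Each marker was itself lower in both GFP-positive libraries, so a gene with an even level would also tend to a higher ratio. The share of all tested genes with such ratios was not counted, so whether these counts are particular to the 7 genes is not known. The part of these markers in the levels of the 7 genes was not tested.

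The genes most like NOS3 and CAV1 were found by the distance between log2(TPM + 1) profiles over the 4 libraries, each centred on its mean. Nearest to CAV1 was HEY1, a transcription factor induced by Notch, with 32.6 and 49.0 TPM in GFP-positive and 106 and 134 TPM in GFP-negative libraries (distance 0.0929 log2 units), followed by the long non-coding RNA MIAT (0.156) and NETO1 (0.173). Nearest to NOS3 were ZBTB4 (0.0393), ZNF599 (0.0448) and KPTN (0.0507). Among the 7, the closest pair was EHD2 and PTRF (0.359), followed by CAV2 and EHD4 (0.380). Of all tested genes, 17.7% lay nearer to PTRF than EHD2 did, and 0.849% lay nearer to CAV2 than EHD4 did. Profiles over 4 libraries describe these libraries only.

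Other caveola genes included 1 that passed. PLVAP, which forms the diaphragm across the neck of endothelial caveolae, fell from 1978 and 1628 TPM in GFP-negative to 807 and 844 TPM in GFP-positive libraries, without overlap. Its log2 fold change was -1.12 ± 0.14 (SE; limma adjusted p = 0.0439). The call was lost when GFP-positive replicate 1 (limma adjusted p = 0.0785), GFP-positive replicate 2 (0.0763) or GFP-negative replicate 1 (0.117) was left out, and held when GFP-negative replicate 2 was (0.0317). It was also lost with a pseudocount of 0.1 (limma adjusted p = 0.0701) or 0.5 (0.0503), without a filter (0.1003) and without a variance trend (0.203). It held over genes with a mean above 5 TPM (limma adjusted p = 0.0255) and with the replicate number as a block (0.00107). Scaling by upper quartile (limma adjusted p = 0.0380) or by a trimmed mean of log ratios (0.0452) also kept the call. Of 14 listed genes 11 were measured, that is, passed the filter on low values, of which 0 rose, 1 fell (against 0.324% of all tested genes) and 10 did not pass, with 3 at an unadjusted p under 0.05, against 14.1%. The median log2 fold change of the 11 was -0.27, but -0.051 when GFP-positive replicate 1 was omitted, -0.059 when GFP-negative replicate 2 was, and -0.11 over genes with a mean above 5 TPM.

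The other genes of that list lay within a narrower range. EHD1, an endosomal relative of EHD2, had 151 and 207 TPM in GFP-positive and 101 and 134 TPM in GFP-negative libraries (log2 fold change 0.60; limma adjusted p = 0.320). PRKCDBP, the third cavin (CAVIN3), had 36.4 and 47.9 TPM against 43.5 and 63.0 TPM and overlapped. MURC, the cavin of muscle, stayed at 1.89 to 5.58 TPM over all libraries, and CAV3, the muscle caveolin, was listed at 0 in all of them. DNM2, the dynamin that cuts vesicles from the membrane, had 139 and 130 TPM against 190 and 166 TPM (log2 fold change -0.40; limma adjusted p = 0.327). FLOT1, a scaffold of other membrane domains, had 194 and 203 TPM against 242 and 237 TPM (limma adjusted p = 0.428).

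**Figure D4:**
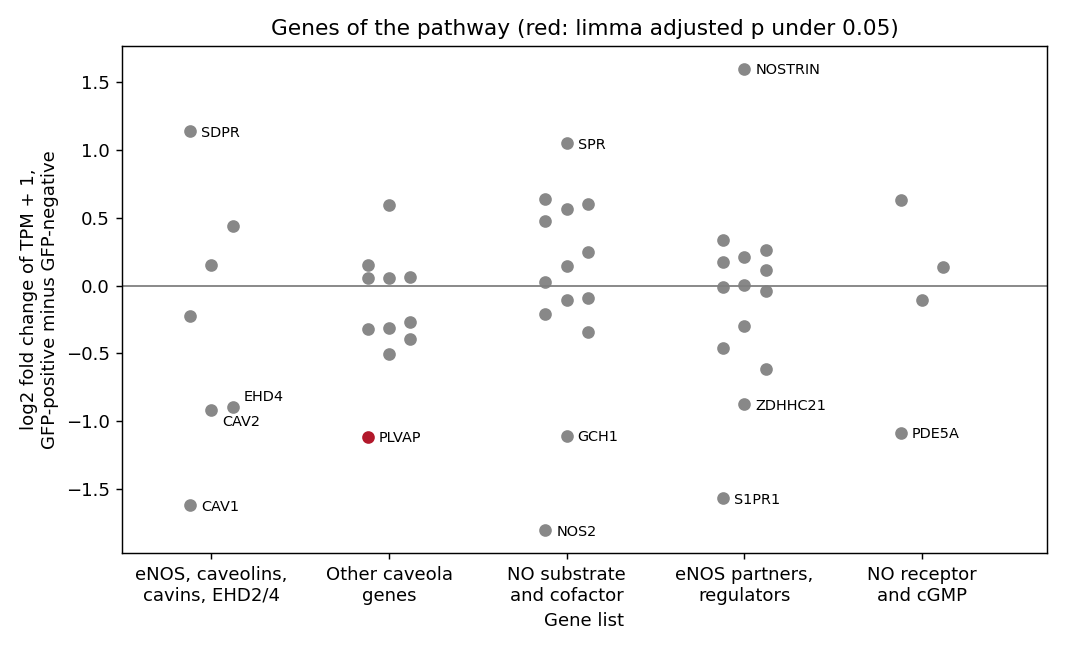
Log2 fold change (GFP-positive minus GFP-negative, on log2(TPM + 1)) of every measured gene of 5 lists, 1 point a gene, spread sideways for legibility. PLVAP, in red at -1.12, is the 1 gene with a limma adjusted p under 0.05; NOSTRIN lies highest at 1.60 and NOS2 lowest at -1.81, and neither passed.

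Partners and regulators of eNOS had 14 measured genes, of which 0 rose, 0 fell and 14 did not pass, with 4 at an unadjusted p under 0.05, against 14.1% of all tested genes. Their median log2 fold change was -0.00073 and ran from -0.034 to 0.031 over the alternatives. NOSTRIN, an adaptor that draws eNOS from the membrane into vesicles and lowers its activity, had 85.2 and 69.7 TPM in GFP-positive and 28.6 and 21.4 TPM in GFP-negative libraries (log2 fold change 1.60 ± 0.24, SE; limma adjusted p = 0.0623). There were 2.17 and 2.22 NOS3 transcripts per NOSTRIN transcript in GFP-positive libraries against 7.65 and 8.35 in GFP-negative libraries. S1PR1, a sphingosine phosphate receptor that activates eNOS, had 34.4 and 15.9 TPM against 81.2 and 63.3 TPM (log2 fold change -1.57; limma adjusted p = 0.159). ZDHHC21, the enzyme that attaches palmitate to eNOS, had 5.70 and 9.69 TPM against 17.4 and 12.2 TPM (limma adjusted p = 0.416).

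The most abundant partners were near level between fractions. HSP90AB1, a chaperone that binds eNOS, had 1808 and 1479 TPM in GFP-positive and 1667 and 1587 TPM in GFP-negative libraries, and HSP90AA1 had 702 and 714 TPM against 560 and 670 TPM. CALM3, 1 of the calmodulin genes, had 628 and 618 TPM against 711 and 578 TPM. NOSIP, which promotes the movement of eNOS away from the membrane, had 131 and 161 TPM against 120 and 137 TPM and overlapped (limma adjusted p = 0.730).

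Substrate and cofactor genes of nitric oxide synthesis had 14 measured of 16, of which 0 rose, 0 fell and 14 did not pass, with 3 at an unadjusted p under 0.05, against 14.1% of all tested genes. Their median log2 fold change was 0.09, and 0.027 with no filter on low values. Omitting GFP-positive replicates 1 and 2 in turn gave 0.012 and 0.053, and omitting GFP-negative replicates 1 and 2 gave 0.013 and 0.34. NOS2, the inducible synthase, had 11.4 and 18.6 TPM in GFP-positive and 44.2 and 64.8 TPM in GFP-negative libraries (log2 fold change -1.81 ± 0.34, SE; limma adjusted p = 0.0971). Its fractions did not overlap, and NOS3 exceeded it in every library. NOS1, the neuronal synthase, was listed at 0.53 TPM or less. GCH1, which starts the synthesis of the cofactor tetrahydrobiopterin, had 3.66 and 4.49 TPM against 7.56 and 12.9 TPM, and SPR, which completes it, had 16.5 and 18.3 TPM against 6.22 and 9.87 TPM (limma adjusted p = 0.349 and 0.293). DDAH2, named for breaking down methylated arginines that inhibit synthases, was the most abundant of the list at 550 and 445 TPM against 523 and 451 TPM. ASL, an enzyme of arginine synthesis, had 86.8 and 63.5 TPM in GFP-positive libraries against 92.2 and 96.8 TPM.

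Receptor and cyclic GMP genes, which carry the nitric oxide signal, were mostly near 0: of 8, 4 passed the filter on low values, of which 0 rose, 0 fell and 4 did not pass, with 0 at an unadjusted p under 0.05, against 14.1% of all tested genes. The median log2 fold change of the 4 was 0.02 and had no stable sign: it was -0.40 with a pseudocount of 0.1, -0.47 over genes with a mean above 5 TPM, -0.26 when GFP-negative replicate 1 was omitted and 0.39 when GFP-positive replicate 1 was. The soluble guanylate cyclase genes GUCY1A3, GUCY1A2 and GUCY1B3 reached at most 1.11 TPM in any library. PDE5A, which breaks down cyclic GMP, had 1.95 and 4.23 TPM in GFP-positive and 6.87 and 7.86 TPM in GFP-negative libraries (log2 fold change -1.09; limma adjusted p = 0.397). VASP, an actin regulator phosphorylated by the kinase of this pathway, had 416 and 379 TPM against 336 and 386 TPM. MRVI1, a target of the same kinase, had 4.51 and 6.29 TPM against 5.03 and 1.77 TPM.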

How the data were processed

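RNA was measured in 4 libraries, 2 GFP-positive and 2 GFP-negative, grouped and numbered from the sample titles. Per the labels' protocols, total RNA went into Illumina TruSeq RNA libraries. The authors deposited 1 table a library with an Ensembl identifier, a symbol and a value. The file headers do not name the unit; it was taken as TPM because each deposited column sums to between 996324 and 997293 and the submitters' processing notes name RSEM. Those notes also name Bowtie, hg19 and mm10, with no version or role; annotation and strand setting: not given in the sources used here.

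Limma 3.58.1 in R 4.3.3 was run on log2(TPM + 1) with a variance trend, over the 15425 genes that reached 1 TPM in 2 or more libraries. It draws each gene's variance toward a trend over these genes. An SE, interval or p-value of a gene therefore does not measure that gene's own spread alone. Tests were two-sided, with Benjamini-Hochberg adjustment over all of them. A fold change on this scale understates the change of low genes. Gene positions and overlaps came from GENCODE v29 on GRCh38, by identifier; 25364 (89.7%) of the identifiers matched. The labels give no batch.

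The genes and lists were chosen with earlier results of these data known. In each list, genes past the threshold, the 3 largest differences and the 3 highest levels were named, with NOSTRIN, NOSIP, HSP90AA1, HSP90AB1, PLVAP, PRKCDBP, NOS1 and NOS2. Of the genes this names, 1 is not reported here. Other genes of a list were chosen after their values were seen. Alternatives were other pseudocounts, filters, scalings (upper quartile, and an unweighted trimmed mean of log ratios, called TMM below), no trend, a replicate block and each library left out.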

Additional observations from a re-analysis of the deposited data

How the results depend on the processing

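Each of the 7 genes kept the sign of its log2 fold change under all 12 alternatives, and all but CAV1 stayed short of the threshold in each: the ranges were -0.37 to -0.08 for NOS3, -1.93 to -1.32 for CAV1, -1.34 to -0.50 for CAV2, 0.05 to 0.24 for PTRF, 1.02 to 1.26 for SDPR, 0.40 to 0.48 for EHD2 and -1.05 to -0.74 for EHD4. With the replicate number as a block, limma called 1 of the 7 lower, CAV1 (log2 fold change -1.62, adjusted p = 0.0137; 0.0137 to 0.315 over all alternatives), 1 substrate gene lower (NOS2), 1 eNOS partner higher (NOSTRIN) and 1 lower (S1PR1), among 596 genes over the whole table (228 higher, 368 lower) against 69 (19 higher, 50 lower) without it. The replicate numbers are not said to mark a shared culture, and deviations of same-numbered libraries correlated at 0.0719 across genes. Limma called 0 genes, 0 higher and 0 lower, with pseudocount 0.1, without a filter and without a variance trend, where 2101, 2230 and 2072 had an unadjusted p under 0.05. In these settings, and with a pseudocount of 0.5, 0 other caveola genes were called. With a mean above 5 TPM it called 164 (50 higher, 114 lower), among them 1 eNOS partner higher, NOSTRIN. With a library left out it called 18 (without GFP-negative replicate 1) to 65 genes, 10 (without GFP-positive replicate 1) to 36 higher and 1 to 48 lower, and 0 to 1 other caveola genes lower. The log2 fold changes of HSP90AB1 and DDAH2, near 0, changed sign with upper quartile scaling (-0.026 and -0.0056), and that of HSP90AB1 also with TMM scaling (-0.014). With a library left out they ran from -0.14 to 0.15 for HSP90AB1, from -0.12 to 0.18 for DDAH2 and from -0.19 to 0.11 for CALM3. The cause of these changes was not tested.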

Other observations

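The summed level of the 7 genes was close to even between libraries, at 960 and 1018 TPM in GFP-positive replicates 1 and 2 and 934 and 973 TPM in GFP-negative replicates 1 and 2, while its make-up differed. The caveolins CAV1 and CAV2 made up 2.22% and 3.57% of that sum in GFP-positive libraries and 7.05% and 8.37% in GFP-negative libraries. The cavins PTRF and SDPR made up 57.9% and 60.4% against 50.8% and 55.6%, and EHD2 with EHD4 20.6% and 20.8% against 18.8% and 17.7%. The share of PTRF alone overlapped, at 53% and 56.4% against 48.8% and 53.5%. That of SDPR was 4.98% and 3.96% against 1.97% and 2.1%. NOS3 made up 19.2% and 15.2% against 23.4% and 18.4%. PTRF weighs most in the sum, so its evenness mainly follows that gene.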
